A study of Homo sapiens with 44 samples.

Results

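Immune checkpoint and evasion ligands are the surface and secreted proteins with which a tumour cell holds back T cells, natural killer (NK) cells, macrophages and complement. The group described here was a named list of 10 genes, CD274, PDCD1LG2, CD276, PVR, LGALS9, CD47, NT5E, CD55, CD46 and CD59. It was set by name and not by a rule on measured values, but earlier results of these data were known. All 10 were found among the 58735 genes of one expression table and the 27315 symbols of the other.

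RNA sequencing was done on 14 libraries from triple-negative breast cancer cell lines, as part of a study of the histone methyltransferase EZH2 and the NF-kB subunits RelA and RelB. They form 7 groups, each with 2 biological replicates. The 30 chromatin immunoprecipitation libraries of the study were not analysed here. In the RelA and RelB experiment, MDA-MB-231 cells, a mesenchymal-like line from a pleural effusion, received siRelA, siRelB or a control small interfering RNA (siControl). In the EZH2 experiment, SUM149 cells, from an inflammatory breast cancer, and MDA-MB-231 cells each received siEZH2 or siControl. Every group, the controls included, was transfected with siRNA, at 20 nM for 48 h per the labels. The sources used here give neither the siRNA sequences nor the number of siRNAs per target, and the labels name no interferon treatment. Values are transcript levels in bulk cultures, so a lower level from fewer expressing cells and one from less RNA per cell cannot be told apart. Surface protein was not measured in these data.

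PD-L1 (CD274) and PD-L2 (PDCD1LG2) bind PD-1 on T cells and dampen T-cell receptor signalling, and PD-L1 is best known for its induction by interferon-gamma through JAK and STAT proteins and IRF1, with NF-kB as a further input. B7-H3 (CD276) is a related ligand that is abundant on carcinomas. PVR (CD155) binds TIGIT and CD96, which restrain T and NK cells, and also the activating receptor DNAM-1. Galectin-9 (LGALS9) is a ligand of TIM-3. CD47 gives macrophages a "do not eat me" signal through SIRPA, and CD73 (NT5E) makes immunosuppressive adenosine from AMP. CD55, CD46 and CD59 protect a cell from its own complement: CD55 speeds the decay of C3 convertases, CD46 is a cofactor for the cleavage of C3b and C4b, and CD59 blocks the membrane attack complex.

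Count tables of the RelA and RelB experiment summed to 18.6 to 24.4 M reads per library, whereas the EZH2 experiment was deposited as variance-stabilised (VST) values without read totals. The targeted transcripts were lower in every knockdown. RELA fell by 3.71 ± 0.11 on the log2 scale under siRelA, RELB fell by 2.98 ± 0.16 under siRelB, and EZH2 fell by 2.00 ± 0.07 in SUM149 and by 2.52 ± 0.07 in MDA-MB-231 under siEZH2. RELB also fell by 1.48 ± 0.14 under siRelA, so the siRelA libraries were low in both subunits. It was lower under siEZH2 too, by 0.50 ± 0.08 in SUM149 and by 1.02 ± 0.08 in MDA-MB-231. Markers of the lines were as labelled for hormone receptors, with ESR1 and PGR at or near 0 in all 14 libraries and KRT8 and VIM abundant. ERBB2 passed the filter on low values in both experiments. Between the line controls, 7 breast carcinoma line markers were tested. KRT5, VIM and CDH1 were called higher in SUM149, and ERBB2, KRT8 and KRT18 lower. Of all genes tested there, 41.3% were called higher and 41.5% lower. Of 15 haematopoietic markers, 7 to 10 were at 0 in each library, and CD3E, MS4A1 and TYROBP were at 0 in all of them. The p-values below come from groups of 2 libraries.

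In MDA-MB-231 control cells of the RelA and RelB experiment, the 10 transcripts spanned 3 orders of abundance. Levels are given per kilobase of annotated exon, as CPM (counts scaled to library size) divided by the union of all exons, so a gene with many long isoforms reads low. NT5E was the most abundant at 129 ± 2.44 CPM per kb (SD, n = 2), which places CD73 far above the other members. CD276 followed at 27.4 ± 0.56, CD59 at 22.1 ± 0.04 and PVR at 20.7 ± 0.17 CPM per kb. A middle group could not be ordered beyond its spread: CD46 had 12.4 ± 1.02, CD47 12.0 ± 0.89, CD55 12.0 ± 0.96 and CD274 11.2 ± 0.18 CPM per kb. PD-L2 was scarce at 1.80 ± 0.36 CPM per kb, and LGALS9 was close to undetected at 0.069 ± 0.012 CPM per kb.

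Knockdown of RelA asks which ligands depend on the canonical NF-kB subunit. Of the 10 members, all of which were tested, 4 fell under siRelA (CD274, PVR, CD55 and CD59) and 0 rose at an edgeR adjusted p under 0.05. Among the 15930 genes tested, 10.2% were called lower and 8.82% higher. At an unadjusted p under 0.05 edgeR put 1 member higher, and DESeq2 called 0 higher. The median log2 change of the members was -0.05, beside 0.02 for all genes tested. The members that fell are a T-cell ligand, an NK- and T-cell ligand and 2 complement inhibitors.

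CD274 (chromosome 9, 5450503 to 5470566 on GRCh38) had 524 and 519 counts in the siRelA libraries and 1076 and 1027 counts in the siControl libraries. Scaled to library size this was 21.2 and 23.6 CPM under siRelA, against 46.4 and 45.3 CPM under siControl. The siRelA libraries lay apart from the controls, at 0.489 of the control mean. The log2 change was -1.03 ± 0.12 (edgeR adjusted p = 8.26e-06), the largest fall among the members.

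PVR (chromosome 19, 44643798 to 44666162) had 3390 and 3227 counts under siRelA and 4991 and 4930 under siControl. In CPM these were 137 and 147 against 215 and 218, so the groups did not overlap. PVR fell by 0.61 ± 0.08 (edgeR adjusted p = 7.40e-05). The GRCh38 annotation places an unnamed transcript on the same strand over 19.4% of the PVR exon length. The counts were made on hg19, and how reads shared between genes were treated there is not known here. Smaller overlaps touch CD59 (5.96% of exon length), LGALS9 (5.15%) and CD46 (5.14%, an antisense RNA). CD55 (chromosome 1, 207321519 to 207386804) had 80.1 and 82.5 CPM under siRelA and 116 and 130 CPM under siControl. It fell by 0.59 ± 0.09 (edgeR adjusted p = 0.000214), a mean of 0.663 of the control. CD59 (chromosome 11, 33703010 to 33736479) had 182 and 187 CPM under siRelA and 234 and 233 CPM under siControl. Its fall was the smallest of those called, at -0.34 ± 0.08 (edgeR adjusted p = 0.00762).

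The proximal promoters of these 4 genes are shown because the genes fell together when an NF-kB subunit was depleted. RefSeq windows on GRCh38.p14 were found for 9 of the 10 members, with 14 start sites between them. Each line below gives the 250 bases before an annotated start, 5′ to 3′ on the strand of the gene, with capitals at matches to any of 3 motifs searched on both strands.
CD274 chr9:5450292-5450541 (plus strand): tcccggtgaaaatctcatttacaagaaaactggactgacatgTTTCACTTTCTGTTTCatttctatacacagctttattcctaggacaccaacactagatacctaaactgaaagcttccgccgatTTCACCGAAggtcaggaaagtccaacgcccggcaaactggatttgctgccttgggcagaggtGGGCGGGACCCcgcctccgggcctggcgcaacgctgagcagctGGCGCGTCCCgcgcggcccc
PVR chr19:44643660-44643909 (plus strand): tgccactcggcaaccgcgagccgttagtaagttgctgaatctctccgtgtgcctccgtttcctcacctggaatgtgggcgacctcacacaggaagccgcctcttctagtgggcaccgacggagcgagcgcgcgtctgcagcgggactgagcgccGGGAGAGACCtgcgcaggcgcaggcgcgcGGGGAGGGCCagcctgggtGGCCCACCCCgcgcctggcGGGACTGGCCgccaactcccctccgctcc
CD55 chr1:207321428-207321677 (plus strand): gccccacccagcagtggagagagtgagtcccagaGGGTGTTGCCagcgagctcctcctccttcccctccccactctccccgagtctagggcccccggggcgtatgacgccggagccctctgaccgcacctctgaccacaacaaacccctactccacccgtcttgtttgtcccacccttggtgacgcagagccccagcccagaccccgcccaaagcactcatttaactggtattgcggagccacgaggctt
CD59 chr11:33736480-33736729 (minus strand): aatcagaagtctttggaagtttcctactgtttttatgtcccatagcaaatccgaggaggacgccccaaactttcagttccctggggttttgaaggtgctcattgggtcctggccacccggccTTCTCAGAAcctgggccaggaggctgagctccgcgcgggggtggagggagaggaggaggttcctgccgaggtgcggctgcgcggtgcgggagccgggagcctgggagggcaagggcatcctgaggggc
The motifs were a kappaB-like one (GGG, 5 bases of any kind, CC), a STAT-like TTCNNNGAA and an IRF-like one (GAAA, 2 bases of any kind, GAAA), and matches of the kappaB-like one could overlap each other. CD274 held 3 kappaB-like matches, of which a pair overlap at 63 to 53 bases before the start and the other lies at 20 to 11. It also held a STAT-like match that begins 125 bases before the start, and 2 overlapping IRF-like matches in the run TTTCACTTTCTGTTTC, the complement-strand form of the motif. No other member window held an IRF-like match. PVR had 4 kappaB-like matches, CD55 had 1, and the CD59 window printed here had 0, with 1 STAT-like match. Of the other 3 CD59 start sites, 1 window held 2 kappaB-like matches, 1 held 1 and 1 held 0. Members not called under siRelA held kappaB-like matches too: 12 and 3 in the CD276 windows, 5 in NT5E, 3 in each CD46 window, 2 in CD47 and 1 in LGALS9. Over 35116 promoter windows of the same length, 54.4% held a kappaB-like, 6.57% a STAT-like and 3.02% an IRF-like match, so the kappaB-like letters alone are common. A match describes letters and does not show that a factor binds there.

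The other 6 members did not pass the test under siRelA. CD47 had 124 and 110 CPM under siRelA, against 93.8 and 104 CPM under siControl (0.24 ± 0.10, edgeR adjusted p = 0.0871). It lay above the controls in every library, but the change did not pass with all libraries and passed without siRelA replicate 2 (0.32, edgeR adjusted p = 0.0456). NT5E had 607 and 548 CPM under siRelA and 578 and 594 CPM under siControl (-0.02 ± 0.08), so the CD73 transcript overlapped between groups. CD46 (0.12 ± 0.09), CD276 (0.05 ± 0.09) and PDCD1LG2 (-0.08 ± 0.30) also overlapped with their controls. PDCD1LG2 rested on few reads, with 111 and 83 counts under siRelA and 87 and 113 under siControl. LGALS9 had 19 and 10 counts under siRelA and 8 and 10 under siControl (0.64 ± 0.89, edgeR adjusted p = 0.688). Galectin-9 has near-identical paralogs, LGALS9B and LGALS9C, so its few reads are of uncertain origin.

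**Figure D1:**
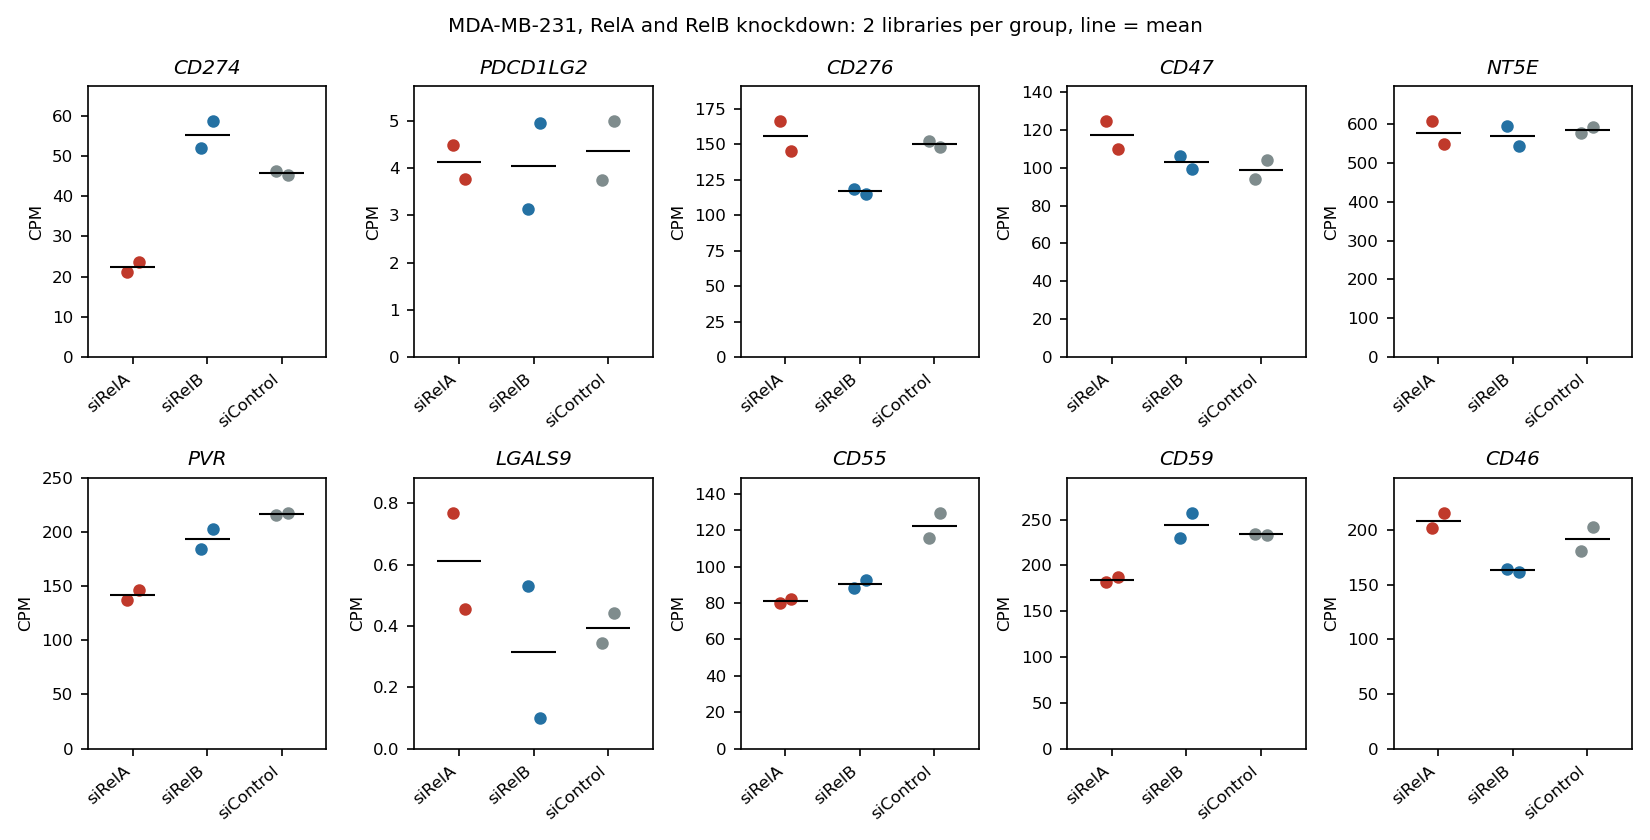
Levels of the 10 members in MDA-MB-231 cells with siRelA, siRelB or siControl. Each panel plots the CPM of 1 gene (counts scaled to library size, axis from 0), each point is 1 of 2 libraries and the line is their mean. CD274 lies at 21.2 and 23.6 CPM under siRelA, below every siRelB and siControl library, while NT5E overlaps between all groups.

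RelB is the subunit of the non-canonical NF-kB arm, and its knockdown was set against the same control libraries, so the siRelA and siRelB results are not independent. Under siRelB 2 of the 10 members fell (CD55 and CD276) and 0 rose, where 10.8% of all genes tested were called lower and 7.45% higher. Here too 1 member was higher at an unadjusted p under 0.05, and 0 by DESeq2. The median log2 change of the members was -0.14, and that of all genes 0.01.

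CD55 had 88.2 and 92.9 CPM under siRelB and 116 and 130 CPM under siControl, and fell by 0.44 ± 0.09 (edgeR adjusted p = 0.00303). CD276 (chromosome 15, 73683966 to 73714514) had 118 and 115 CPM under siRelB and 152 and 148 CPM under siControl. It fell by 0.36 ± 0.09 (edgeR adjusted p = 0.00849), to 0.777 of the control mean. Each of these calls depended on single libraries. CD276 missed the threshold without siControl replicate 1 (edgeR adjusted p = 0.0694) or siRelB replicate 2 (0.0526), and CD55 missed it without siControl replicate 2 (0.0587).

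CD274 had 981 and 1161 counts under siRelB, against 1076 and 1027 under siControl in larger libraries, which scale to 55.3 ± 4.64 CPM and 45.8 ± 0.75 CPM (SD, n = 2 each). The siRelB libraries lay above the controls, on the other side from siRelA, but the change of 0.27 ± 0.11 did not pass (edgeR adjusted p = 0.107). CD46 had 164 and 162 CPM under siRelB and 181 and 203 CPM under siControl (-0.23 ± 0.09, edgeR adjusted p = 0.0689). This gene lay near the threshold, with an adjusted p of 0.0465 in DESeq2, 0.0463 with no filter on low counts and 0.0469 when only these groups were fitted. It also passed without siRelA replicate 1 (0.0456) or siRelA replicate 2 (0.0452). PVR, with 184 and 203 CPM under siRelB against 215 and 218 CPM under siControl, changed by -0.16 ± 0.08 and did not pass. The remaining members were NT5E (-0.04 ± 0.08), CD47 (0.05 ± 0.10), CD59 (0.06 ± 0.08), PDCD1LG2 (-0.11 ± 0.30) and LGALS9 (-0.32 ± 0.95, from 10 and 2 counts under siRelB), and none passed.

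A gene called under one siRNA and not under the other is not thereby shown to differ, so siRelA was compared with siRelB directly. Of the 10 members 3 were lower with siRelA (CD274, PVR and CD59) and 2 higher (CD276 and CD46). The share of all genes called was 14.0% lower and 16.0% higher. CD274 averaged 22.4 ± 1.69 CPM under siRelA and 55.3 ± 4.64 CPM under siRelB (SD, n = 2 each), a log2 difference of -1.30 ± 0.12 (edgeR adjusted p = 4.74e-07). PVR differed by -0.45 ± 0.08 (edgeR adjusted p = 0.000770) and CD59 by -0.40 ± 0.08 (0.00147). These 3 ligands were therefore lower with RelA knockdown than with RelB knockdown. In the other direction, CD276 had 166 and 145 CPM under siRelA and 118 and 115 CPM under siRelB, a difference of 0.42 ± 0.09 (edgeR adjusted p = 0.00200). CD46 averaged 209 ± 9.92 CPM under siRelA and 163 ± 1.59 CPM under siRelB, a difference of 0.36 ± 0.09 (edgeR adjusted p = 0.00470). CD55, which fell under both siRNAs, differed between them by -0.16 ± 0.09 and did not pass. A difference between the siRNAs was also not called for CD47 (0.19), NT5E (0.02), PDCD1LG2 (0.03) or LGALS9 (0.96).

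Knockdown of EZH2 asks which ligands change when the enzyme that places the repressive H3K27me3 mark is depleted. These values come from the EZH2 experiment, whose VST scale is close to log2 for abundant genes and compresses differences of scarce ones. Normalised counts were therefore also recovered by inverting the transformation, and the folds given are ratios of those counts. Of 9 members tested, 5 rose (NT5E, PDCD1LG2, CD47, CD59 and CD276) and 2 fell (CD55 and PVR) in SUM149, where 29.4% of 12356 genes were called higher and 28.6% lower by limma. In MDA-MB-231 6 of 9 rose (the same 5 and CD274) and 2 fell (CD55 and PVR again), where 29.4% of genes were called higher and 27.1% lower. The median VST difference of the members was 0.53 in SUM149 and 0.46 in MDA-MB-231, beside -0.00 and 0.00 for all genes. LGALS9 was not tested here, since it lay close to the lowest value of the table.

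**Figure D2:**
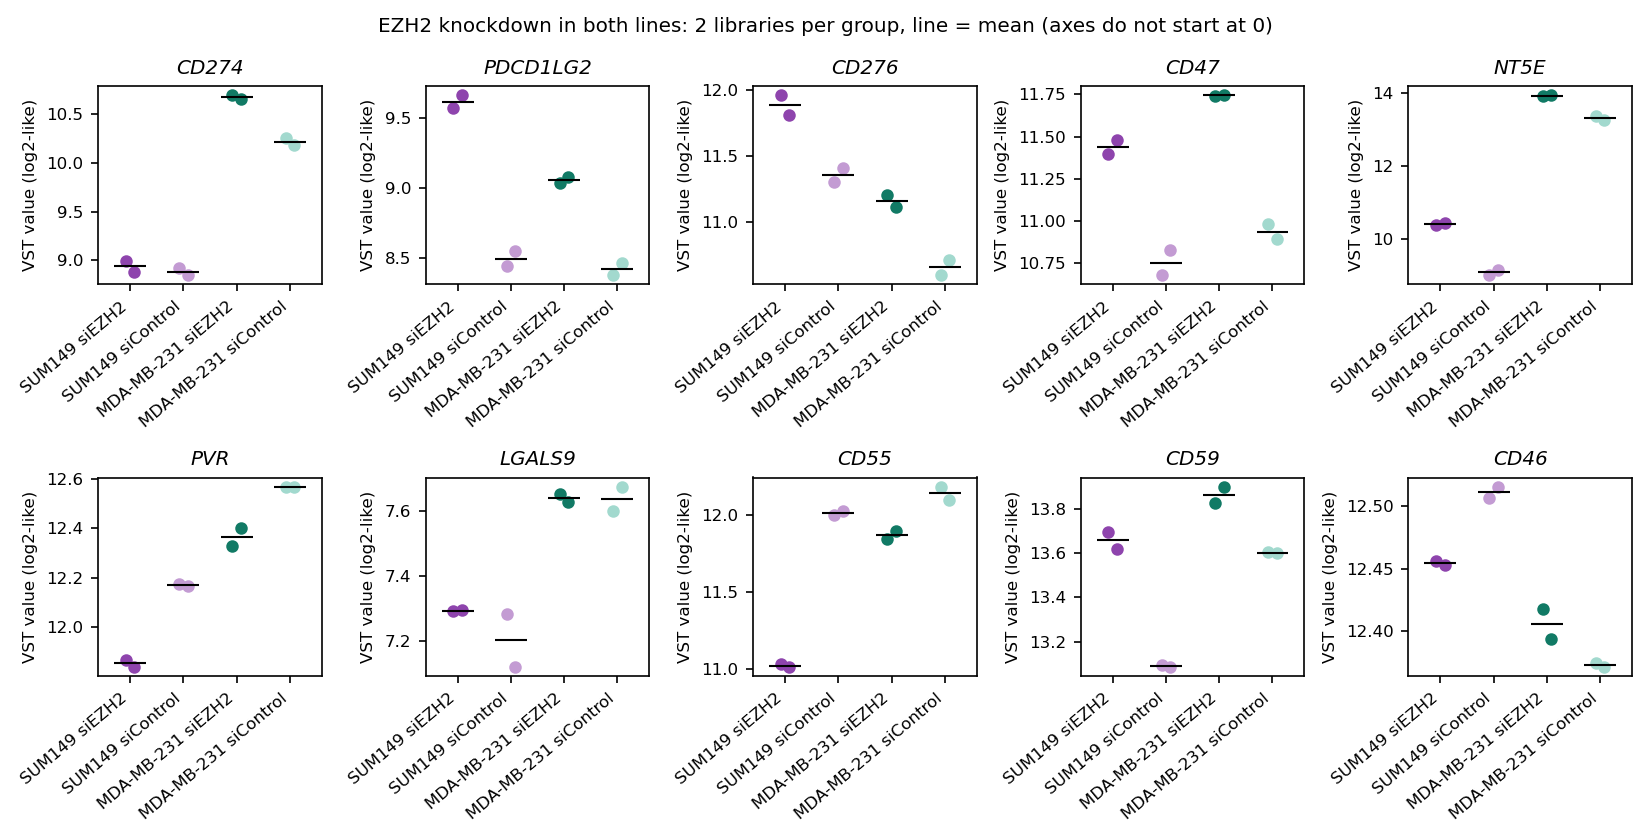
VST values (log2-like, axes not starting at 0) of the 10 members with siEZH2 or siControl in SUM149 and MDA-MB-231 cells. Each point is 1 of 2 libraries and the line is their mean; PDCD1LG2, CD276, CD47, NT5E and CD59 lie higher and PVR and CD55 lower with siEZH2 in both lines, and CD274 lies higher in MDA-MB-231 alone.

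Both PD-1 ligands sit next to each other on chromosome 9. PDCD1LG2, at 5510531 to 5571282, had 507 and 557 normalised counts in SUM149 siEZH2 cells, against 124 and 147 in SUM149 siControl cells. The groups were far apart, 3.91-fold higher on normalised counts, with a VST difference of 1.12 ± 0.07 (limma adjusted p = 2.49e-08). MDA-MB-231 cells had 284 and 299 normalised counts with siEZH2 and 112 and 130 with siControl, 2.41-fold higher (0.64 ± 0.07, limma adjusted p = 4.06e-06). Control levels of PD-L2 overlapped between the lines.

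CD274, unlike its neighbour, was not called in SUM149. It had 269 and 236 normalised counts in SUM149 siEZH2 cells and 247 and 224 in SUM149 siControl cells, which overlap (0.05 ± 0.07, limma adjusted p = 0.510). MDA-MB-231 cells had 1387 and 1337 normalised counts with siEZH2 and 956 and 895 with siControl. That rise was 1.47-fold (0.46 ± 0.07, limma adjusted p = 5.89e-05), so the PD-L1 transcript was higher with siEZH2 in the line where its control level was already higher.

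CD276 rose by a like amount in each line. It had 3723 and 3329 normalised counts in SUM149 siEZH2 cells against 2252 and 2452 in SUM149 siControl cells, and 2088 and 1940 in MDA-MB-231 siEZH2 cells against 1275 and 1409 in MDA-MB-231 siControl cells. The means were 49.9% higher in SUM149 and 50.1% higher in MDA-MB-231, with VST differences of 0.53 ± 0.07 in SUM149 (limma adjusted p = 1.93e-05) and 0.51 ± 0.07 in MDA-MB-231 (3.06e-05). PVR went the other way in both lines. It had 3468 and 3395 normalised counts in SUM149 siEZH2 cells and 4346 and 4327 in SUM149 siControl cells, and fell by 0.32 ± 0.05 (limma adjusted p = 0.000120). For MDA-MB-231, PVR had 4875 and 5138 normalised counts with siEZH2 and 5797 and 5783 with siControl, and fell by 0.20 ± 0.05 (limma adjusted p = 0.00374). LGALS9 had 1.95 and 2.02 normalised counts in SUM149 siEZH2 cells and 1.78 and 0 in SUM149 siControl cells. In MDA-MB-231 it had 19.1 and 17.4 with siEZH2 and 15.6 and 20.9 with siControl, which overlap.

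CD47 (chromosome 3, 108043091 to 108091862) had 2427 and 2581 normalised counts in SUM149 siEZH2 cells and 1370 and 1546 in SUM149 siControl cells. It rose 1.72-fold (0.69 ± 0.06, limma adjusted p = 8.06e-07). In MDA-MB-231 CD47 had 3156 and 3163 normalised counts with siEZH2 and 1753 and 1632 with siControl, a rise of 1.87-fold (0.81 ± 0.06, limma adjusted p = 1.78e-07). In that line CD47 had the largest VST difference of the members, while PDCD1LG2 had the larger fold on normalised counts (2.41-fold).

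NT5E (chromosome 6, 85449584 to 85495791) had the largest VST difference of the members in SUM149, while PDCD1LG2 had the larger fold on normalised counts. NT5E had 1056 and 1108 normalised counts in SUM149 siEZH2 cells and 269 and 324 in SUM149 siControl cells, 3.65-fold higher (1.32 ± 0.06, limma adjusted p = 3.45e-09). In MDA-MB-231, where CD73 is abundant, NT5E had 15036 and 15416 normalised counts with siEZH2 and 10332 and 9422 with siControl. The rise there was 1.54-fold (0.61 ± 0.06, limma adjusted p = 3.16e-06). Even after the rise, SUM149 siEZH2 cells held fewer NT5E transcripts than any MDA-MB-231 library.

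The complement inhibitors split 3 ways. CD55 had 1824 and 1799 normalised counts in SUM149 siEZH2 cells and 3822 and 3884 in SUM149 siControl cells, at 0.470 of the control mean (-0.99 ± 0.05, limma adjusted p = 6.68e-09). In MDA-MB-231 it had 3397 and 3529 with siEZH2 and 4371 and 4105 with siControl, at 0.817 of the control mean (-0.27 ± 0.05, limma adjusted p = 0.000559). CD55 thus fell in all 4 knockdown comparisons, those of RelA and RelB included, which share their controls. Its call under siRelB was lost without siControl replicate 2. The share of all genes called lower in all 4 was not counted. CD59 had 12988 and 12306 normalised counts in SUM149 siEZH2 cells and 8481 and 8424 in SUM149 siControl cells, 49.6% higher (0.57 ± 0.05, limma adjusted p = 1.59e-06). The MDA-MB-231 libraries held 14252 and 15013 with siEZH2 and 12171 and 12145 with siControl, 20.4% higher (0.26 ± 0.05, limma adjusted p = 0.00110). CD59 therefore rose with siEZH2 but fell with siRelA. CD46 (chromosome 1, 207752037 to 207795513) had 5346 and 5333 normalised counts in SUM149 siEZH2 cells and 5545 and 5581 in SUM149 siControl cells (-0.06 ± 0.05, limma adjusted p = 0.330). In MDA-MB-231 it had 5198 and 5105 with siEZH2 and 5035 and 5024 with siControl (0.03 ± 0.05, limma adjusted p = 0.587), so no change was called in either line.

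**Figure D3:**
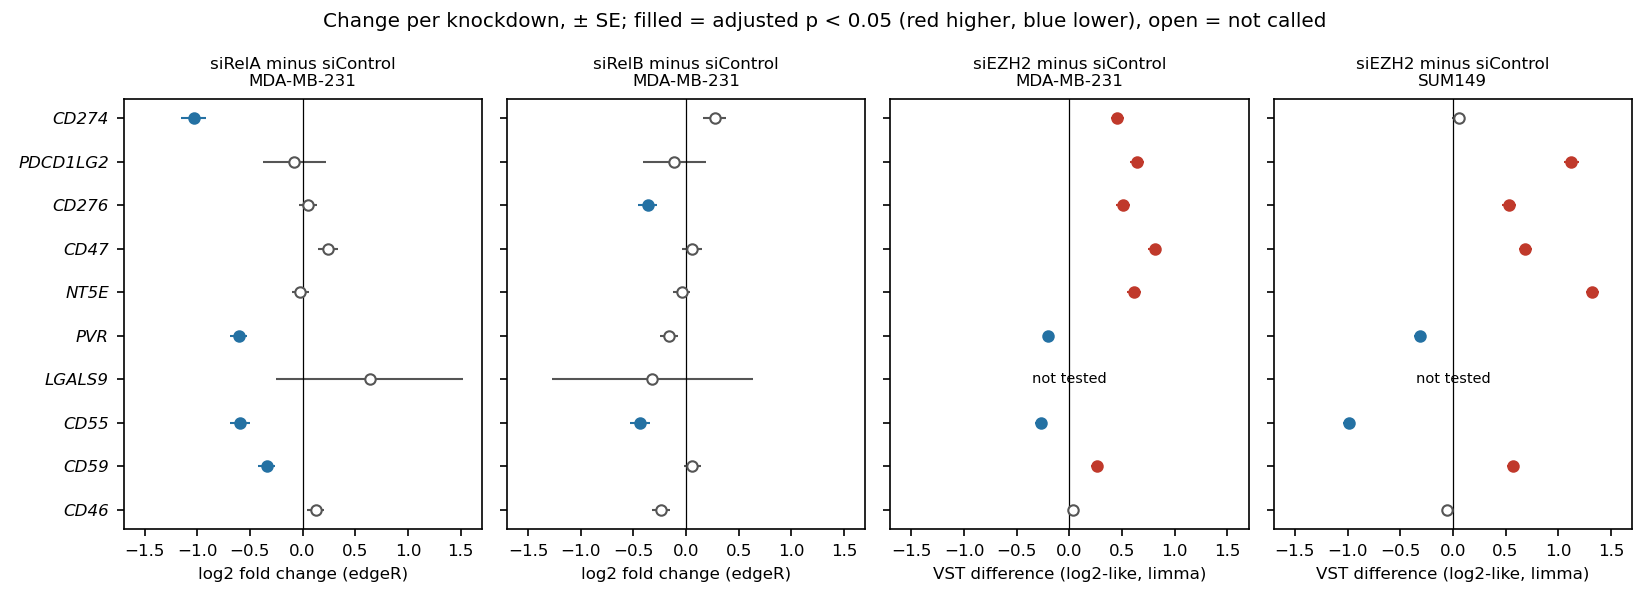
Change of each member in the 4 knockdown comparisons, as log2 fold change (edgeR, RelA and RelB experiment) or VST difference (limma, EZH2 experiment), with bars of 1 standard error. Filled points passed an adjusted p of 0.05 and open points did not; CD55 is lower in all 4 panels, and LGALS9 was not tested in the EZH2 experiment.

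Whether EZH2 knockdown acted differently in the lines was tested as the difference of the siEZH2 effects, SUM149 minus MDA-MB-231. EZH2 itself fell less in SUM149 (0.51 ± 0.10, limma adjusted p = 0.00346), as did RELB (0.52 ± 0.11, 0.00443). A difference between the lines therefore cannot be told apart from one in the depth of knockdown. For this interaction 3 of 9 members were called higher (NT5E, PDCD1LG2 and CD59) and 2 lower (CD55 and CD274), where 11.2% of all genes were called higher and 10.4% lower. On the recovered counts the genes called over the whole table shifted to 1282 higher and 728 lower, against 1381 higher and 1281 lower on VST values, and the calls of members were unchanged. NT5E gave a difference of 0.71 ± 0.09 (limma adjusted p = 0.000125) and PDCD1LG2 of 0.49 ± 0.10 (0.00320), so both rose more in SUM149. CD55 gave -0.72 ± 0.07 (limma adjusted p = 1.98e-05), a larger fall in SUM149.

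Less firm were CD274 and CD59. CD274 gave -0.40 ± 0.09 (limma adjusted p = 0.00789), which reached only an adjusted p of 0.0510 without MDA-MB-231 siControl replicate 2. CD59 gave 0.30 ± 0.08 (limma adjusted p = 0.0129), and its adjusted p was 0.0516 without MDA-MB-231 siControl replicate 1 and 0.0576 without SUM149 siEZH2 replicate 1. A difference between the lines was not called for CD276 (0.03 ± 0.10), CD47 (-0.12 ± 0.09), PVR (-0.12 ± 0.07) or CD46 (-0.09 ± 0.07). The VST scale compresses low counts, and on recovered counts the effects of scarce members were larger, by more than 1.5 times in several cases. PDCD1LG2 then rose by 1.98 in SUM149 and 1.25 in MDA-MB-231 (log2, edgeR), with a difference of 0.73. The NT5E difference became 1.27.

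**Figure D4:**
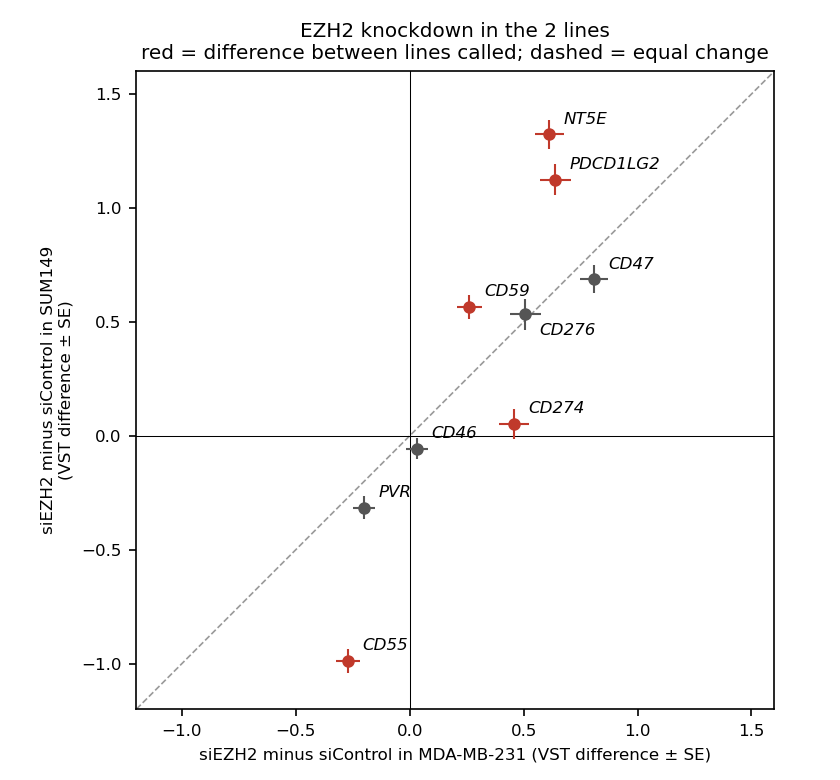
Effect of siEZH2 in SUM149 (vertical axis) against MDA-MB-231 (horizontal axis) as VST differences from siControl, with bars of 1 standard error and a dashed line of equal change. NT5E, PDCD1LG2 and CD59 lie above the line and CD274 and CD55 below it (red, difference between the lines called), while CD276, CD47, PVR and CD46 lie near it.

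The control libraries of the lines were compared to show the starting levels. SUM149 controls were lower than MDA-MB-231 controls for 6 of 9 members (NT5E, CD274, CD59, PVR, CD47 and CD55) and higher for 2 (CD276 and CD46), where 41.5% of all genes were called lower and 41.3% higher. NT5E stood out, with 269 and 324 normalised counts in SUM149 and 10332 and 9422 in MDA-MB-231, 33.3-fold lower in SUM149 (-4.24 ± 0.06 in VST, limma adjusted p = 1.38e-15). CD274 was 3.92-fold lower in SUM149 (-1.33 ± 0.07, limma adjusted p = 2.46e-10). On recovered counts the CD274 difference was -1.99 (log2, edgeR), over 1.5 times that on the VST scale. CD276 was 1.75-fold higher in SUM149 (0.71 ± 0.07). CD59 differed by -0.51 ± 0.05, PVR by -0.40 ± 0.05 and CD47 by -0.19 ± 0.06. CD46 (0.14 ± 0.05, limma adjusted p = 0.0158) and CD55 (-0.13 ± 0.05, 0.0341) were close to the threshold. CD46, CD47 and CD55 all lost their calls without SUM149 siControl replicate 1 (adjusted p = 0.0536, 0.154 and 0.124). CD47 and CD55 lost them without MDA-MB-231 siControl replicate 1 (0.115 and 0.218), CD46 without MDA-MB-231 siControl replicate 2 (0.0535), and CD46 and CD55 without SUM149 siControl replicate 2 (0.0687 and 0.0719). PDCD1LG2 did not pass (0.07 ± 0.07). LGALS9, not tested after the filter on low values, had 1.78 and 0 normalised counts in SUM149 controls and 15.6 and 20.9 in MDA-MB-231 controls, with no overlap. It was called lower without the filter (-0.44 ± 0.06, limma adjusted p = 0.000103) and on recovered counts (edgeR adjusted p = 5.07e-05), which makes 7 members lower in each.

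Related genes outside the list were counted from lists of the same pathways. Over all genes tested, 29.4% were called higher and 28.6% lower with siEZH2 in SUM149, and 29.4% and 27.1% in MDA-MB-231. Under siRelA 8.82% were called higher and 10.2% lower, and under siRelB 7.45% and 10.8%. The counts of these small lists were not tested against those shares. Where 0 calls in a direction are given for a list below, 0 or 1 of its genes passed there at an unadjusted p under 0.05, except for the NK-receptor ligands under siRelA, of which 3 were higher. DESeq2 also called 0 in those cases of the RelA and RelB experiment, except for 1 adenosine gene lower under siRelA. Of 7 other B7 and butyrophilin genes tested, 2 rose and 0 fell under siRelA, where DESeq2 called 1 higher. Under siRelB 3 rose and 0 fell, led by VSIR (0.80 ± 0.16), which encodes the checkpoint ligand VISTA, and BTN3A1 (0.69 ± 0.14). Under siEZH2, 2 of 8 rose and 1 fell in SUM149, and 5 rose and 2 fell in MDA-MB-231. VSIR rose in both (0.61 ± 0.07 in SUM149 and 0.48 ± 0.07 in MDA-MB-231), and NCR3LG1, the ligand of the NK receptor NKp30, fell in both (-0.81 ± 0.07 and -0.22 ± 0.07). CD80 and CD86, the costimulatory ligands of professional antigen-presenting cells, passed the filter in neither experiment. Among the nectins, relatives of PVR, NECTIN1 rose with siEZH2 by 0.73 ± 0.08 in SUM149 and 1.06 ± 0.08 in MDA-MB-231, opposite in sign to PVR. There 2 of 3 tested nectins rose in SUM149 and 3 of 3 in MDA-MB-231, with 0 falls. In the RelA and RelB experiment 0 of 5 were called under siRelA, and under siRelB only NECTIN3 rose (0.56 ± 0.13).

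The adenosine-pathway partners of CD73 were counted next. With siEZH2, 3 of 8 rose and 1 fell in SUM149, and 7 of 8 rose and 0 fell in MDA-MB-231. Of all genes, 29.4% were called higher in each line, and 28.6% lower in SUM149 and 27.1% in MDA-MB-231. ENPP1, which cleaves extracellular ATP and cyclic dinucleotides, rose by 1.08 ± 0.06 in SUM149 and 0.43 ± 0.06 in MDA-MB-231. Under siRelA 2 of 9 rose, the adenosine-degrading enzyme ADA (1.54 ± 0.51) and the receptor ADORA1 (1.47 ± 0.30), and 0 fell. ADA rested on 64 and 52 counts, against 20 and 19 with siControl (edgeR adjusted p = 0.0438). DESeq2 called 1 gene of this list higher and 1 lower there. Under siRelB 0 rose and 2 fell, ENPP1 (-0.61 ± 0.10) and ADORA2B (-0.45 ± 0.09). Other phagocytosis signals, the company of CD47, rose with siEZH2 in 5 of 8 cases in SUM149 and 6 of 8 in MDA-MB-231, with 0 falls. LRP1, the receptor through which calreticulin prompts engulfment, rose by 0.98 ± 0.07 in SUM149 and 0.66 ± 0.07 in MDA-MB-231. STC1, a glycoprotein that retains calreticulin inside the cell, rose by 0.81 ± 0.07 in SUM149 and 0.94 ± 0.07 in MDA-MB-231, and fell by 0.92 ± 0.10 under siRelA and by 0.57 ± 0.10 under siRelB. Under siRelA 1 of the 8 rose and 1 fell, and under siRelB 0 rose and 2 fell.

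Among the ligands of NK receptors, HLA-E, which engages inhibitory NKG2A, rose with siEZH2 by 0.71 ± 0.06 in SUM149 and 0.97 ± 0.06 in MDA-MB-231. The NKG2D ligands went both ways. MICA (-0.50 ± 0.07 in SUM149 and -0.20 ± 0.07 in MDA-MB-231) and MICB (-0.36 ± 0.06 and -0.69 ± 0.06) fell. RAET1E and RAET1G rose in both lines, by 0.46 ± 0.06 and 0.24 ± 0.06 in MDA-MB-231. Of the 9 tested, 4 rose (HLA-E, CLEC2D, RAET1E and RAET1G) and 2 fell in each line. The share of all genes called higher was 29.4% in each line, with 28.6% lower in SUM149 and 27.1% in MDA-MB-231. Under siRelA 0 of 9 rose and MICA fell, and under siRelB ULBP2 rose and MICB fell. The galectins LGALS1 and LGALS3 rose with siEZH2 in both lines (LGALS3 by 0.95 ± 0.08 in SUM149 and 0.84 ± 0.08 in MDA-MB-231), with 3 of 4 up and 0 down in SUM149 and 3 up and 1 down in MDA-MB-231. None of 5 galectins was called under siRelA or siRelB by edgeR. Of other complement regulators, clusterin (CLU) fell by 0.42 ± 0.07 in SUM149 and rose by 0.76 ± 0.07 in MDA-MB-231 with siEZH2, a called difference between the lines (-1.18 ± 0.11). Over the list, 1 of 3 rose and 1 fell in SUM149 and 3 of 3 rose in MDA-MB-231. Under siRelA 3 of 4 rose and 0 fell, and under siRelB 1 rose, CLU, and 0 fell. DESeq2 called 2 higher under siRelA, and the VTN rise there rested on 16 and 12 counts, against 1 and 0 with siControl.

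The known regulators of PD-L1 were read beside CD274. Under siRelA 2 of 19 rose and 5 fell, where 8.82% of all genes were called higher and 10.2% lower. Those that rose, opposite in sign to CD274, were B3GNT3 (1.75 ± 0.31) and STAT2 (0.49 ± 0.11). Those that fell were CSNK2A1 (-0.77 ± 0.09), MYC (-0.46 ± 0.09), the interferon-gamma receptor chains IFNGR1 and IFNGR2, and the transcription factor IRF1 (-0.37 ± 0.12). Under siRelB 0 rose and IFNGR2 alone fell (-0.60 ± 0.10). With siEZH2, 10 of 19 rose and 6 fell in SUM149, where CD274 was not called, and 5 rose and 6 fell in MDA-MB-231, where it rose. Of all genes, 29.4% were called higher in each line, and 28.6% lower in SUM149 and 27.1% in MDA-MB-231. JAK2, which lies near CD274 on chromosome 9, rose in both (0.76 ± 0.07 in SUM149 and 0.54 ± 0.07 in MDA-MB-231). Of 9 tested neighbours of CD274 on 9p24, JAK2 included, 4 rose and 2 fell with siEZH2 in SUM149 and 1 rose and 1 fell in MDA-MB-231. Under siRelA 1 rose and 1 fell, and under siRelB 1 rose and 2 fell. SUM149 controls were higher than MDA-MB-231 controls for 8 of these 9 neighbours and lower for JAK2, whereas CD274 itself was lower. Between these controls 41.3% of all genes were called higher and 41.5% lower.

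As a description, the 5 genes whose levels tracked CD274 most closely over the 6 libraries of the RelA and RelB experiment and the 8 of the EZH2 experiment were LBH, GBP1, RCAN1, CCDC190 and RIC8A, out of 11182 genes tested in both. The smaller of the 2 Pearson correlations was 0.995 for LBH and 0.982 for RIC8A. The libraries form groups that share a knockdown and a cell line, so they are not independent points.

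Markers of other cell types moved with EZH2 knockdown. The 15 haematopoietic markers summed to 5892 and 5502 normalised counts in SUM149 siEZH2 cells against 2128 and 2546 in SUM149 siControl cells, and to 5099 and 4989 in MDA-MB-231 siEZH2 cells against 2116 and 2434 in MDA-MB-231 siControl cells. All 4 tested (CD14, CSF1R, CD68 and LAPTM5) rose in each line, where 29.4% of all genes were called higher. The leukocyte marker PTPRC lay at 0 to 2.48 normalised counts in all 8 libraries, and CD3E, MS4A1 and TYROBP at 0. In the RelA and RelB experiment the same sum was 108 and 95.3 CPM under siRelA, 79.0 and 81.3 under siRelB and 68.3 and 70.8 under siControl. Fibroblast and endothelial markers, 9 in all, summed to 6414 and 6264 normalised counts in SUM149 siEZH2 cells against 2858 and 2998 in SUM149 siControl cells, mostly DCN. In MDA-MB-231 they summed to 435 and 477 with siEZH2 and 306 and 318 with siControl, and in the RelA and RelB experiment to 58.5 and 49.3 CPM under siRelA, 42.7 and 37.3 under siRelB and 34.2 and 32.9 under siControl. The epithelial marker EPCAM fell with siEZH2, to 175 and 166 normalised counts in SUM149, against 1594 and 1460 with siControl, and to 518 and 556 in MDA-MB-231, against 1410 and 1297 with siControl. It was 1 of 7 breast carcinoma line markers tested. In SUM149, KRT5, KRT8, VIM, ERBB2 and CDH1 rose, and EPCAM and KRT18 fell. In MDA-MB-231, VIM and ERBB2 rose, and EPCAM, KRT18 and CDH1 fell. Of all genes, 28.6% were called lower in SUM149 and 27.1% in MDA-MB-231. The part of these markers in the changes of the ligands was not tested.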

How the data were processed

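For the RelA and RelB experiment the authors deposited raw read counts per Ensembl gene, made on hg19 with HISAT2 2.0.5 and featureCounts 1.5.0-p3 among the tools that the submitters' processing notes list. For the EZH2 experiment they deposited variance-stabilised values on a log2 scale (lowest value 7.12), for which those notes list hg19, STAR 2.5.2b, Salmon, cutadapt and DESeq2. The sources used here do not give strand settings.

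Counts were fitted by edgeR 4.0.16 (quasi-likelihood, TMM, default filter) on 6 libraries, and VST values by limma 3.58.1 with a variance trend on 8, keeping genes that exceeded the lowest value by 1 or more in 2 or more libraries. Benjamini-Hochberg adjustment covered all genes tested (calls at 0.05). Code was tested on simulated data. Normalised counts were recovered by inverting the parametric VST with the lowest value as 0 counts, which is an assumption. Of recovered values under 20, 78.8 to 86.6% lay within 0.1 of a whole multiple of a library's step. The experiments came from different facilities. No level or test was taken across them, and calls of separate fits stand side by side. Positions are GENCODE v44 on GRCh38, and promoters RefSeq GRCh38.p14.

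Every member is reported. Of each other list, at most the 2 largest called rises and falls were to be named, apart from genes named to complete a count, chosen after their values were seen. Members and lists were chosen with earlier results of these data known. R was 4.3.3.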

Additional observations from a re-analysis of the deposited data

Results flagged for a closer look

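For 5 members the effect of EZH2 knockdown differed between the lines by a test of the difference itself (limma interaction term, SUM149 effect minus MDA-MB-231 effect, n = 2 libraries per group in 4 groups, on the VST scale). Over all genes tested 11.2% were called higher and 10.4% lower. EZH2 itself fell less in SUM149, by a difference of 0.51, so the line and the depth of knockdown cannot be told apart. NT5E differed by 0.71, having risen by 1.32 in SUM149 and by 0.61 in MDA-MB-231, and on recovered counts its difference was 1.27 (log2, edgeR). PDCD1LG2 differed by 0.49, having risen by 1.12 in SUM149 and by 0.64 in MDA-MB-231. CD59 differed by 0.30, with rises of 0.57 in SUM149 and 0.26 in MDA-MB-231. Its limma adjusted p was 0.0516 without MDA-MB-231 siControl replicate 1 and 0.0576 without SUM149 siEZH2 replicate 1. CD55 differed by -0.72, having fallen by 0.99 in SUM149 and by 0.27 in MDA-MB-231. CD274 differed by -0.40, with a change of 0.05 in SUM149 that did not pass the test and a rise of 0.46 in MDA-MB-231. Its limma adjusted p was 0.0510 without MDA-MB-231 siControl replicate 2.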

How the results depend on the processing

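With all libraries kept, 451 of the 456 values recomputed for single members under other settings kept their direction and side of the threshold, 3 gained a call, 1 lost it and 1 changed sign. The call lost was CD55 between the line controls without a variance trend, and the calls gained among members tested in the reported fits were all CD46 under siRelB. LGALS9, which the filter on low values removed from the EZH2 experiment, was also called lower in the line controls without that filter and on recovered counts. The sign that changed was that of CD46 under siEZH2 in MDA-MB-231, at -0.0066 with median-centred libraries. With 1 library left out at a time, 433 of 468 values kept direction and side, 3 gained a call, 14 lost it and 18 changed sign. None of the 19 that changed sign was called under either setting. Leaving out a library moved CD276 over -0.048 to 0.10 in the interaction. Under siRelA the ranges were -0.067 to 0.14 for CD276, -0.12 to 0.044 for NT5E and -0.28 to 0.13 for PDCD1LG2. Under siRelB they were -0.027 to 0.12 for CD47, -0.032 to 0.13 for CD59, -0.11 to 0.0087 for NT5E, -0.49 to 0.18 for PDCD1LG2 and -1.91 to 0.42 for LGALS9. Between siRelA and siRelB they were -0.068 to 0.093 for NT5E and -0.26 to 0.41 for PDCD1LG2. The number of members called ranged from 4 to 5 under siRelA, 1 to 3 under siRelB and 5 to 8 between the line controls when a library was left out. Under siRelB it was 1 without siControl replicate 1, siControl replicate 2 or siRelB replicate 2, and between the line controls 5 without SUM149 siControl replicate 1. The other comparisons gave 5 (siRelA against siRelB), 8 (siEZH2 in MDA-MB-231), 7 (siEZH2 in SUM149) and 4 to 5 (interaction).

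The replicate numbers were shared between groups, but same-numbered libraries did not deviate together (correlations of -0.024 to 0.048 in the RelA and RelB experiment, 0.088 in MDA-MB-231 and -0.117 in SUM149 of the EZH2 experiment). With the replicate block the numbers of members called were 4, 2, 5, 8, 7, 5 and 8 for siRelA, siRelB, siRelA against siRelB, siEZH2 in MDA-MB-231, siEZH2 in SUM149, the interaction and the line controls, the same as without it. A crossed pairing in SUM149, added after seeing the data, also called 7. Read totals of the EZH2 experiment are unknown, so the counting error of its values cannot be given, and the few LGALS9 reads limit any statement on galectin-9.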
